A study of Mus musculus with 6 samples.

Results

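The genes described here are 41 genes of DNA replication: the factors that load and start the replicative helicase, the polymerases and their sliding clamp, the enzymes that supply deoxynucleotides, and a few regulators and chromatin factors of S phase. They were listed by their function in replication, not by a threshold on their values, though with earlier results of these data known. All 41 are among the 12625 genes of the count table. The cells were C2C12, a mouse myoblast line whose cells fuse into myotubes when they differentiate. Cells at 5 days of differentiation received recombinant murine RANKL at 100 ng/ml for 72 h (3 libraries, "RANKL") or vehicle (3 libraries, "vehicle"). RANKL is a cytokine of the TNF family that binds the receptor RANK and is best known for driving osteoclast formation. All 6 libraries come from the same line, and nothing in the labels says that replicates were separate cultures, so p-values measure only the spread between these libraries, which may be technical.

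Replication proceeds in fixed steps. In G1 the origin recognition complex, with Cdc6 and Cdt1, loads the MCM ring onto DNA. At the start of S phase Cdc45 and the GINS complex join the ring and turn it into the active helicase. Polymerase alpha with primase lays down primers, polymerases epsilon and delta extend them, and the clamp Pcna, placed by the RFC complex, holds the polymerases on DNA. Many of these genes are targets of E2F transcription factors, which the retinoblastoma protein holds in check. Myoblasts leave the cell cycle before they fuse, and nuclei inside a myotube normally do not replicate, while C2C12 cultures are known to keep some unfused mononucleated cells beside the myotubes.

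Most replication genes differed little between RANKL and vehicle, and those that rose did so by modest amounts. Under edgeR's quasi-likelihood test with Benjamini-Hochberg adjustment over all genes (threshold 0.05), 6 of 41 members rose and 0 fell: Cdc6, Tk1, Uhrf1, Mcm3, Mcm6 and Mcm2. DESeq2 and limma-voom called 5 higher each (12.2%) and 0 lower, beside 4.24% and 5.2% of all genes called higher. In the edgeR test no member with a negative log2 fold change had an unadjusted p under 0.05. Among all genes tested by edgeR 5.35% were called higher and 7.5% lower, and the 6 members make 14.6% of the 41. The members that rose include 3 of the 6 subunits of the MCM ring. At an unadjusted p under 0.05 stood 14 members (34.1%), all with a positive value, beside 27.2% of all genes tested in either direction. The median log2 fold change of the members was 0.12, against 0.00 for all genes tested, and 36 of 41 members had a positive value. In 10 members every RANKL library exceeded every vehicle library, and in 2 every RANKL library was lower (14.9% and 16.6% of all genes tested). The members ranged from a log2 fold change of -0.13 (Orc6) to 0.66 (Cdc6). Values above 0.1 were held by 24 members (58.5%) and by 20.3% of all genes, and values above 0.2 by 15 members (36.6%) and by 9.43% of all genes.

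The count of members that rose varied with the libraries kept. Without RANKL replicate 1 it was 2 of 41, or 4.88%, beside 5.14% of all genes called higher in the same fit, which is no more than the background. Without vehicle replicate 2 it was also 2 (4.88%), beside 2.95% of all genes, and without vehicle replicate 1 it was 3 (7.32%), beside 3.37%. Leaving out vehicle replicate 3 gave 4 members (9.76%), beside 3.58% of all genes. Leaving out RANKL replicate 2 gave 5 (12.2%), beside 3.71%, and leaving out RANKL replicate 3 gave 7 (17.1%), beside 5.91%. Mcm6 and Tk1 were called in all 14 alternatives tried, and the other 4 each lost their call in at least 1. With library sizes scaled to total counts instead of TMM, 11 members rose and 0 fell, while the split over all genes moved to 1070 higher and 626 lower, against 676 higher and 947 lower with TMM. RANKL replicate 1 was the highest of the 6 libraries in 20 of the 41 members. Summed over the members, the RANKL libraries held 732, 717 and 717 CPM (read counts scaled to a common library size with TMM factors) in replicates 1, 2 and 3, against 687, 686 and 684 in the vehicle libraries. The sums did not overlap, and the mean of the RANKL sums was 1.053 times that of the vehicle sums. In these bulk libraries, more cells in S phase and more RNA per cell cannot be told apart.

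**Figure D1:**
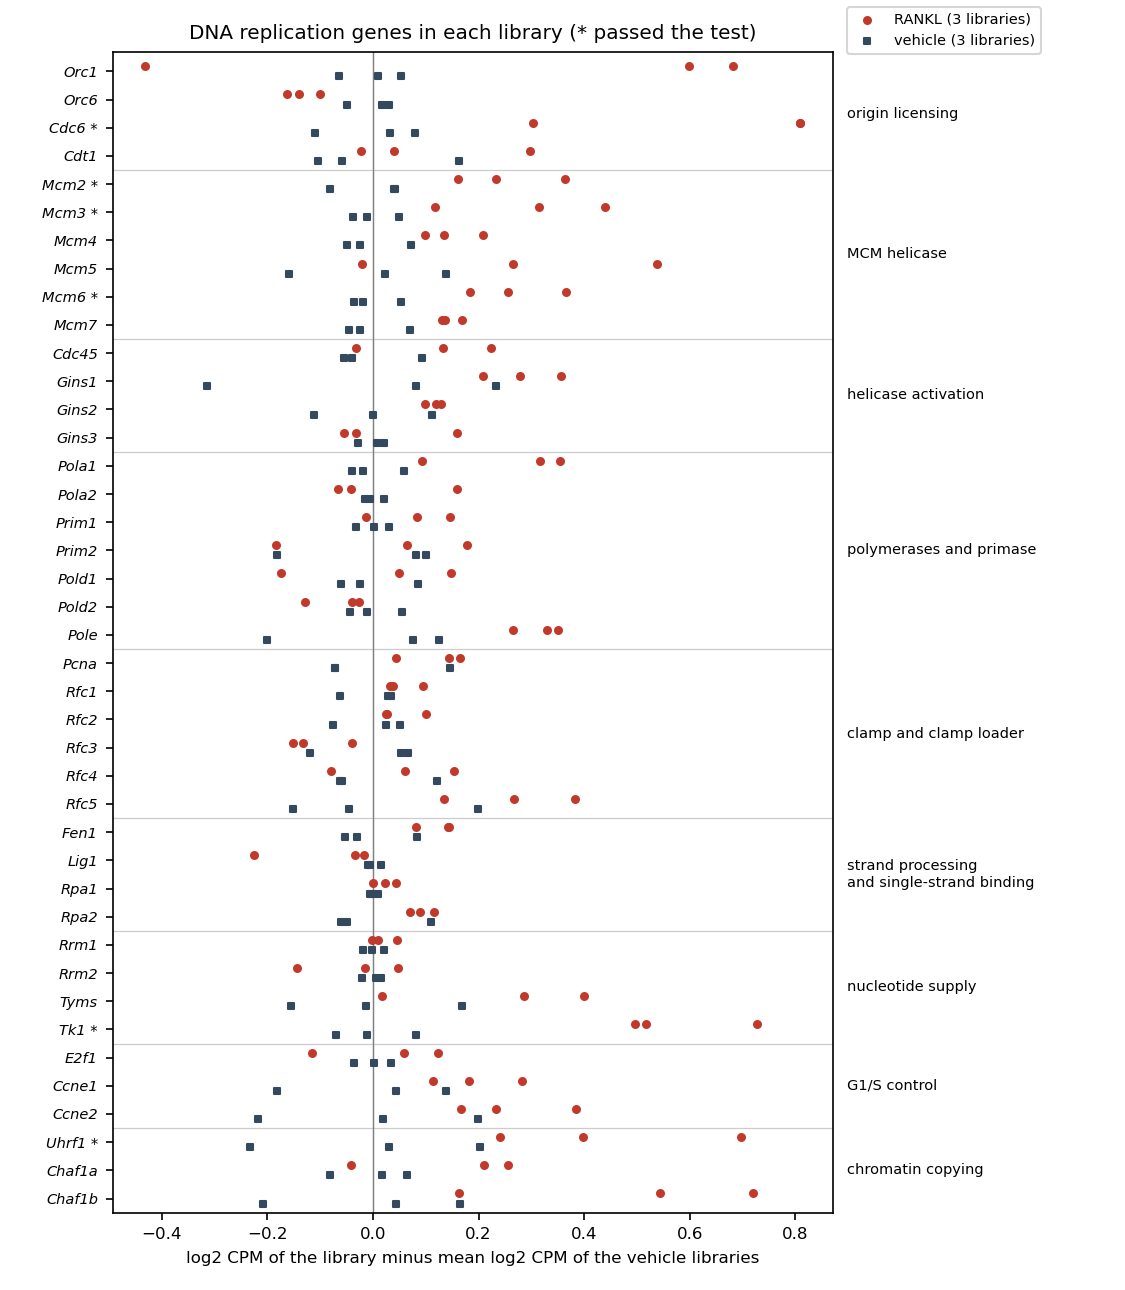
Each replication gene in each library, as log2 CPM minus the mean log2 CPM of the 3 vehicle libraries, with RANKL libraries as red circles and vehicle libraries as dark squares, ordered by role. The 6 members marked with an asterisk passed the test, with all their red circles to the right of their dark squares, while most other members overlap.

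**Figure D2:**
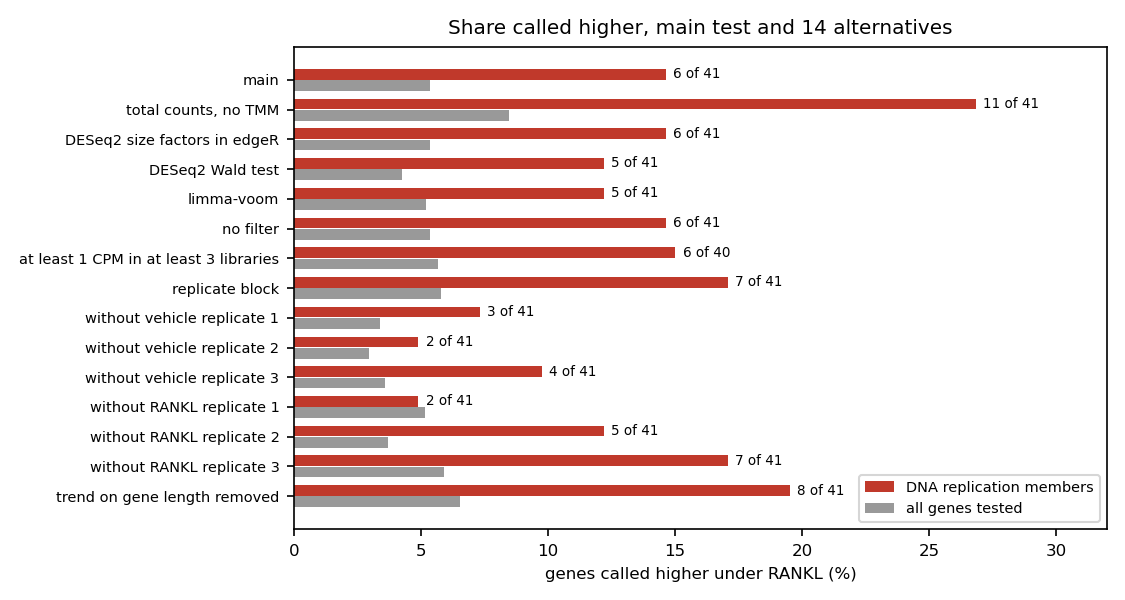
Percentage of genes called higher under RANKL among the replication members (red) and among all genes tested (grey), in the main test and in 14 alternatives. The members' count ranges from 2 to 11, and without RANKL replicate 1 the red bar is no longer than the grey one.

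Promoter sequences are shown for the 6 members that rose, and for Gins3 as a member with an E2F match whose RNA did not pass the test, because E2F and NF-Y are the factors most often linked to the promoters of cell cycle genes. Each is the 200 bases before the start of transcription in RefSeq on GRCm38.p6, 5′ to 3′ on the gene's strand. Capitals mark an E2F match (TTTGGCGC, TTTGCCGC, TTTCGCGC or TTTCCCGC, on either strand) or the CCAAT box, the core of an NF-Y site (CCAAT on either strand).

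Mcm6 (chr1:128359706-128359905, minus strand): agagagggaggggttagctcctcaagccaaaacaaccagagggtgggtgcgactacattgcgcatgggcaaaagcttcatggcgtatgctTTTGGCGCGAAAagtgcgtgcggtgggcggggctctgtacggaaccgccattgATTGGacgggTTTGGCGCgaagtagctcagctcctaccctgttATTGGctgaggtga
Mcm2 (chr6:88898781-88898980, minus strand): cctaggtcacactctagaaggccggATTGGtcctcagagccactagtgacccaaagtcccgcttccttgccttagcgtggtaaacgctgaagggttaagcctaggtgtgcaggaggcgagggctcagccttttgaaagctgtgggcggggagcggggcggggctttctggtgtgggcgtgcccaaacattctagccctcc
Mcm3 (chr1:20820313-20820512, minus strand): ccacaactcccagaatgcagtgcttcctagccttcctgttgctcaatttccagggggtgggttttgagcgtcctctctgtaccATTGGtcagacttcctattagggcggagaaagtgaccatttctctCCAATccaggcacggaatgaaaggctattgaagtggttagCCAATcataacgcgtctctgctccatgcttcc
Cdc6 (chr11:98907951-98908150, plus strand): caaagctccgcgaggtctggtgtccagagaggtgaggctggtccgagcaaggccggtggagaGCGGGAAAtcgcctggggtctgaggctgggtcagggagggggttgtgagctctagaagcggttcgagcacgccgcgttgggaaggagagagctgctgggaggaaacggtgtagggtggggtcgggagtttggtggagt
Tk1 (chr11:117826015-117826214, minus strand): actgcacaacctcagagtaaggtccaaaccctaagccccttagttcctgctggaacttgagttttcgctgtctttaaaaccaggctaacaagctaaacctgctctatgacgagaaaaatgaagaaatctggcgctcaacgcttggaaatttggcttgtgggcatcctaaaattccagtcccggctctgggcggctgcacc
Uhrf1 (chr17:56304113-56304312, plus strand): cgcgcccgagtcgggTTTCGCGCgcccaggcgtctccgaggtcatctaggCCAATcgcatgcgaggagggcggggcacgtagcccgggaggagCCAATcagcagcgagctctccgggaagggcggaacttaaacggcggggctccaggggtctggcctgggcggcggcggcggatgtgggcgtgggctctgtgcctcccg
Gins3 (chr8:95633359-95633558, plus strand): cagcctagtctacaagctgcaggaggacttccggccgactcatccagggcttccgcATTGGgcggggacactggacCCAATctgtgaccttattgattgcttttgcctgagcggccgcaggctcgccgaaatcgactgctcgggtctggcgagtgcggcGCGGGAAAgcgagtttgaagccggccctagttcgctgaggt

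In Mcm6 there are 3 E2F matches, of which a pair on opposite strands overlap. Their first bases lie at -110, -106 and -47, counted from the start with -1 as the last base before it. Cdc6 holds a match at -138, Uhrf1 a match at -185 in the shown window of its 2 RefSeq starts, and Gins3 a match at -41. Mcm3 has its 2 matches after the start, at 20 and 39, outside the bases shown. Mcm2 and Tk1 hold no E2F match in their windows, and Mcm2 holds 1 CCAAT box. All 6 members that rose are protein-coding genes in GENCODE M21 (mm10), with Mcm6 at chr1:128331590-128359664 and Tk1 at chr11:117815526-117826092, both on the minus strand. The starts differ between the annotations. In GENCODE M21 Cdc6 begins at 98907801 and Uhrf1 at 56303321, so the bases shown for them lie inside these genes. Those shown for Tk1 and Gins3 lie partly inside.

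Over the whole RefSeq windows, which span 250 bases before the start and 50 after it, 34 of the 41 members could be matched by symbol. An E2F match stood in 13 of these 34 genes (38.2%), against 4.65% of the 9625 tested genes with a window and 2.6% of all 27025 genes in the table. Among the members that rose 4 of 6 held it, and among the others 9 of 28. The CCAAT box was found in 61.8% of members and in 42.9% of tested genes. The cell cycle homology region (TTTGAA, either strand), a motif of promoters active in G2 and mitosis, stood in 14.7% of members and 14% of tested genes. A search for the NF-kB consensus by the same rule found it in 1 member, Mcm7, or 2.94%, and in 6.29% of tested genes. Members and tested genes had a similar base composition, with a median GC content of 61.3% and 60.7%. Such matches describe letters in a window and not binding.

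**Figure D3:**
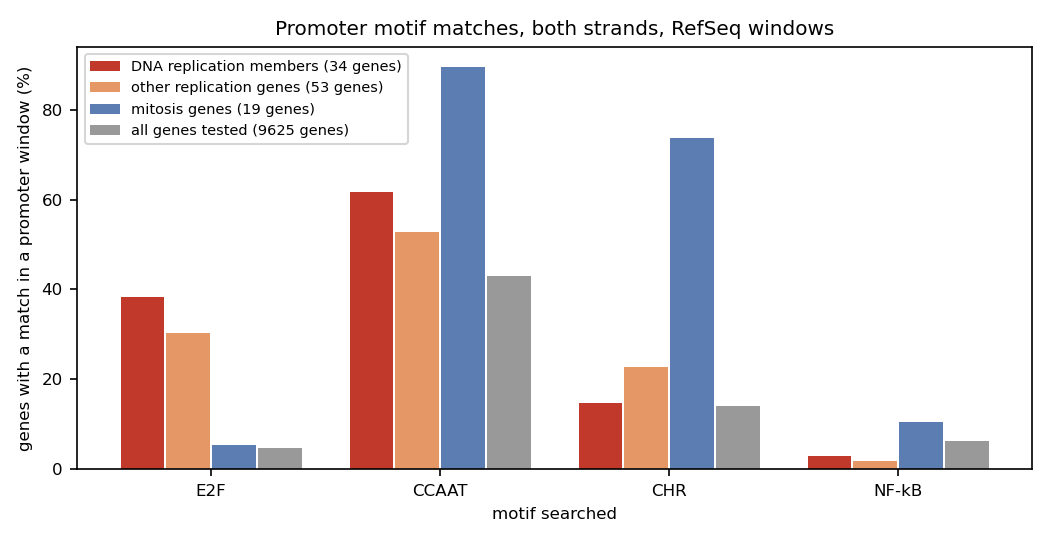
Percentage of genes with at least 1 match to each motif in a RefSeq promoter window (both strands), for 34 replication members, 53 other replication genes, 19 mitosis genes and 9625 tested genes. The E2F bar is 38.2% for the members and 5.26% for the mitosis genes, while the CHR bar is 14.7% for the members and 73.7% for the mitosis genes.

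Of the 4 origin licensing genes Cdc6 rose, and Cdc6 and Orc1 had the lowest levels per length of all members. Cdc6, the ATPase that helps load the MCM ring, had 1.75, 1.23 and 1.75 CPM in the RANKL libraries (66, 42 and 58 counts), against 0.926, 1.022 and 1.06 CPM in the vehicle libraries (36, 34 and 39 counts). All RANKL libraries were above all vehicle libraries, with replicate 2 the nearest. Its log2 fold change was 0.66 ± 0.20 (SE; edgeR adjusted p = 0.0414), and its adjusted p lay between 0.0243 and 0.143 over the 14 alternatives. It was not called by DESeq2 or limma-voom, and it lost its call when vehicle replicate 1, 2 or 3 or RANKL replicate 1 or 3 was left out. Orc1, an ATPase subunit of the origin recognition complex, had 1.14, 0.558 and 1.21 CPM under RANKL, against 0.72, 0.781 and 0.758 under vehicle. RANKL replicate 2 lay below all vehicle libraries and the other 2 above them, so the groups overlapped (0.37 ± 0.27, adjusted p = 0.415). Orc6, the smallest subunit of that complex, was lower in every RANKL library, with 12.1 to 12.7 CPM against 13.1 to 13.9 under vehicle, but did not pass the test (-0.13 ± 0.06, adjusted p = 0.193). Cdt1, the partner of Cdc6 in loading, had 5.2, 4.35 and 4.17 CPM in RANKL libraries and 4.73, 3.94 and 4.06 in vehicle libraries, with overlapping groups (0.11 ± 0.12, adjusted p = 0.622).

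The MCM subunits, which form the ring of the helicase motor, had higher means under RANKL in all 6 genes, and 3 of 6 passed the test. Mcm6 had the smallest adjusted p of any member. It stood at 32.1, 29.7 and 28.3 CPM in RANKL libraries, against 25.8, 24.3 and 24.6 CPM in vehicle libraries. The groups did not overlap, and the log2 fold change was 0.27 ± 0.05 (adjusted p = 0.00491), between 0.22 and 0.31 over the alternatives. Mcm2 had 18.6, 16.1 and 16.97 CPM under RANKL, against 13.6, 14.8 and 14.8 CPM under vehicle. Its log2 fold change was 0.26 ± 0.07 (adjusted p = 0.0233), a call lost when RANKL replicate 1, vehicle replicate 1 or vehicle replicate 2 was left out. Mcm3 had 14.01, 12.8 and 11.2 CPM under RANKL, against 10.1, 10.2 and 10.7 CPM under vehicle. Its log2 fold change was 0.30 ± 0.08 (adjusted p = 0.0298), and the call was lost when any library other than RANKL replicate 3 was left out. Mcm5 spread widely under RANKL, with 11.4, 9.46 and 7.76 CPM against 7.05, 7.99 and 8.67 CPM under vehicle. RANKL replicate 3 fell within the vehicle range, and Mcm5 did not pass (0.28 ± 0.12, adjusted p = 0.152), though without that library its adjusted p was 0.0244. Mcm4 (0.15 ± 0.06, adjusted p = 0.101) and Mcm7 (0.15 ± 0.05, adjusted p = 0.0709) had groups that did not overlap and did not pass the test, though both passed with total count scaling. The summed CPM of the 6 subunits was 113 to 127 under RANKL and 102 to 103 under vehicle.

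The factors that activate the ring gave no call by edgeR, DESeq2 or limma-voom, and none had an unadjusted p under 0.05. Cdc45, which bridges the ring and GINS, stood at 0.11 ± 0.10 on the log2 scale (edgeR adjusted p = 0.518). The GINS subunits among the members, Gins1, Gins2 and Gins3, stood at 0.27 ± 0.21, 0.12 ± 0.14 and 0.03 ± 0.08. Gins4, the remaining subunit and no member here, had 20.5, 19.2 and 18.5 CPM under RANKL, against 17.7, 18.4 and 18.7 under vehicle, with overlapping groups (0.09 ± 0.06, adjusted p = 0.372). Gins3 had 8.81, 8.67 and 10.1 CPM under RANKL, against 9.06, 9.14 and 8.83 under vehicle, an overlap that leaves a 95% interval of -0.15 to 0.20 for its log2 fold change (adjusted p = 0.878). Gins1 had only 36 to 39 counts per library under RANKL and 28 to 35 under vehicle, and its interval was wide, from -0.18 to 0.72.

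None of the 7 polymerase and primase genes was called by edgeR, by DESeq2 or by limma-voom, and 2 had an unadjusted p under 0.05, Pole and Pola1. Pole, the catalytic subunit of the leading strand polymerase, had 6.98, 6.58 and 6.88 CPM under RANKL, against 5.97, 5.77 and 4.77 CPM under vehicle. The groups did not overlap (0.31 ± 0.10, adjusted p = 0.0602), and Pole was called with total count scaling and with the trend on gene length removed. Pola1, the catalytic subunit of polymerase alpha, had 9.05, 7.76 and 9.30 CPM under RANKL, against 7.18, 7.57 and 7.07 under vehicle, again without overlap (0.26 ± 0.09, adjusted p = 0.0705). Pola1 passed when the trend on gene length was removed, when RANKL replicate 2 was left out, and under total count scaling. Pola2 and the primase subunits Prim1 and Prim2 had log2 fold changes of 0.02 to 0.08. Pold1, the catalytic subunit of polymerase delta, had 6.08, 5.67 and 4.86 CPM under RANKL, against 5.81, 5.26 and 5.39 under vehicle (0.01 ± 0.11, 95% interval -0.21 to 0.24, adjusted p = 0.951). Its partner Pold2 stood at -0.06 ± 0.06.

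The sliding clamp and its loader did not pass the test either. Pcna, the ring that tethers the polymerases and a common S phase marker, had 39.98, 40.52 and 37.25 CPM under RANKL, against 34.40, 34.38 and 39.996 CPM under vehicle. Vehicle replicate 3 lay among the RANKL libraries and the other vehicle libraries below them, and the log2 fold change was 0.11 ± 0.06 (adjusted p = 0.231). Without that library it was called, with an adjusted p of 0.0385. Among the RFC subunits, which open the clamp, Rfc5 had the highest value (0.25 ± 0.12, adjusted p = 0.179) and Rfc3 the lowest (-0.11 ± 0.08, adjusted p = 0.430). Rfc1, Rfc2 and Rfc4 lay between 0.04 and 0.05, and the libraries of Rfc4 held 4.24, 3.85 and 4.53 CPM under RANKL, against 4.43, 3.91 and 3.90 under vehicle.

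Genes that process the lagging strand and protect single strands stayed within a narrow range. Fen1, the flap nuclease, stood at 0.12 ± 0.07 (adjusted p = 0.260). Lig1, the ligase that seals the nicks, was lower in every RANKL library, at 11.8 to 13.6 CPM against 13.7 to 13.9 under vehicle, without passing (-0.09 ± 0.07, adjusted p = 0.461). Rpa1, the large subunit of the single-strand binding protein, had 66.9, 68.9 and 68.0 CPM under RANKL, against 66.8, 67.3 and 66.6 CPM under vehicle. Its groups nearly coincided, and the 95% interval of its log2 fold change ran from -0.05 to 0.09. Rpa2 stood at 0.09 ± 0.06.

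Nucleotide supply split between Tk1 and the abundant reductase. Tk1, the thymidine kinase of the salvage pathway, had 3.55, 4.11 and 3.502 CPM in RANKL libraries, against 2.37, 2.46 and 2.63 CPM in vehicle libraries. All RANKL libraries were above all vehicle libraries, with 1.5 times the level (log2 fold change 0.58 ± 0.13, adjusted p = 0.00832), and between 0.51 and 0.62 over the alternatives. Exons of Tk1 overlap those of Afmid on the opposite strand, and how strand was treated in counting is not given in the sources. The ribonucleotide reductase subunits Rrm1 and Rrm2, which make deoxynucleotides, did not pass the test. Rrm1 had 118, 117 and 121 CPM under RANKL, against 119, 116 and 117 under vehicle, with a 95% interval of -0.05 to 0.09. Rrm2 had 71.3, 78.0 and 81.4 CPM under RANKL, against 79.6, 79.0 and 77.6 under vehicle, and its interval ran from -0.13 to 0.06. Tyms, thymidylate synthase, stood at 0.24 ± 0.11 (adjusted p = 0.188), with RANKL replicate 2 inside the vehicle range.

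The regulators of S phase entry gave no call by edgeR, DESeq2 or limma-voom, and 1 of 3, Ccne2, had an unadjusted p under 0.05. E2f1, the activator of many of these genes, had 16.5, 14.7 and 17.3 CPM under RANKL, against 15.5, 15.9 and 16.2 under vehicle (0.03 ± 0.07, 95% interval -0.12 to 0.17). The cyclins E, which drive Cdk2 at S phase entry, stood at 0.18 ± 0.12 for Ccne1 and 0.26 ± 0.12 for Ccne2 (adjusted p = 0.382 and 0.160), with overlapping groups. Of the chromatin factors, Uhrf1, which brings the maintenance methyltransferase to newly copied DNA, rose. It had 11.4, 9.23 and 8.27 CPM under RANKL, against 8.05, 7.15 and 5.96 CPM under vehicle. RANKL replicate 3 was only just above vehicle replicate 1, and the log2 fold change was 0.45 ± 0.12 (adjusted p = 0.0272). Without RANKL replicate 1 it was 0.31 and did not pass (adjusted p = 0.0719). The call was also lost when RANKL replicate 2, vehicle replicate 2 or vehicle replicate 3 was left out. Chaf1b, a subunit of the histone chaperone CAF-1, had 3.55, 3.14 and 2.42 CPM under RANKL, against 2.42, 2.22 and 1.87 under vehicle, with an overlap between the closest libraries of each group (0.49 ± 0.17, adjusted p = 0.0688). It was called with total count scaling, with the replicate block and without RANKL replicate 3, with an adjusted p of 0.0186 at the lowest. Chaf1a, its large partner, stood at 0.15 ± 0.09.

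The levels of the members were compared on the log2 scale of the authors' deposited normalized values, which name no unit and were read as per-length values. Under vehicle they spanned 7.33 log2 units, with 11 members above 3, 26 from 0 to 3 and 4 below 0. The median over members was 1.89 under RANKL and 1.85 under vehicle, against 3.22 for all genes under vehicle. In the vehicle order Rrm2 was highest (5.14 under RANKL, 5.18 ± 0.02 SD under vehicle), followed by Rrm1 (4.89 under RANKL, 4.87 ± 0.02 under vehicle), Pcna (4.96 under RANKL, 4.85 ± 0.13 under vehicle) and Rpa1 (4.45 under RANKL, 4.43 ± 0.01 under vehicle). Under RANKL the mean of Pcna stood above that of Rrm1. Rrm1 and Pcna did not differ beyond their spread under vehicle. Of the 40 pairs of neighbours in the vehicle order, 15 had ranges that did not overlap. Cdc6 was lowest under vehicle (-1.54 under RANKL, -2.15 ± 0.09 under vehicle), below Orc1 (-1.63 under RANKL, -1.90 ± 0.06 under vehicle) and Pole (-0.05 under RANKL, -0.37 ± 0.17 under vehicle). Under RANKL the mean of Orc1 was the lower of the pair.

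Subunits of the same complex stood at unequal levels. Under vehicle, the MCM subunits ran from 3.33 ± 0.06 for Mcm7 and 3.10 ± 0.05 for Mcm6, through 2.53 for Mcm4, 2.10 for Mcm2 and 1.85 for Mcm3, to 1.205 ± 0.15 for Mcm5. The clamp loader ran from 3.47 for Rfc1 to 1.44 for Rfc5. In the complex of polymerase alpha with primase, Prim1 stood at 2.51 and Pola1 at 0.45. These values depend on the gene lengths the authors used, which the sources do not give.

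**Figure D4:**
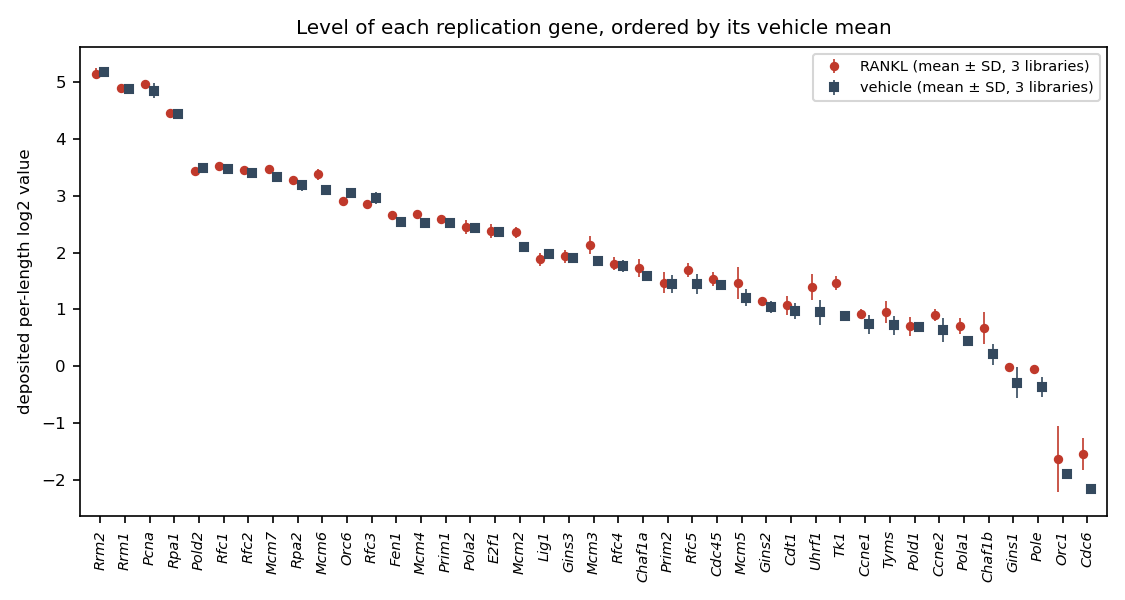
Level of each replication gene as the deposited log2 value, read as per length, mean ± SD of 3 libraries, with RANKL in red left of vehicle in dark, ordered by the vehicle mean. Rrm2, Rrm1, Pcna and Rpa1 stand at the top at about the same height in both groups, while Cdc6, at the low end, has its red point above its dark one.

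Other genes of replication were taken from a list of 64 that are not members, of which 6 rose (9.4%) and 1 fell. Over all genes tested 5.35% were called higher, 7.5% lower and 12.9% in either direction. The median over the list was 0.08 on the log2 scale. Ccna2, cyclin A, which serves both S phase and mitosis, rose by 0.53 ± 0.08 on the log2 scale (edgeR adjusted p = 0.000706). Hells, a chromatin remodeller, E2f7, a repressor of E2F targets, and Ctps, which makes CTP, rose by 0.50 ± 0.12, 0.40 ± 0.10 and 0.17 ± 0.04. The other 2 that rose were Rif1 and Ticrr, and Top1, a topoisomerase, fell by 0.12 on the log2 scale (all 3 named here with their values already known). The count of 7 called genes was 2 without vehicle replicate 2, 3 without vehicle replicate 3 and 4 without RANKL replicate 2.

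Most genes of mitosis rose. Of 23 measured, 21 rose (91.3%), beside 5.35% of all genes tested. The log2 fold changes of the list lay between 0.24 and 0.60 around a median of 0.46. Without vehicle replicate 2 the count was 10, beside 2.95% of all genes called higher. Without any other library it was 14 to 20, beside 3.37% to 5.91% of all genes. Mki67, the proliferation marker, had 56.2, 48.7 and 51.4 CPM under RANKL, against 37.6, 35.4 and 33.4 under vehicle. Cdk1, the mitotic kinase, had 13.9, 13.6 and 13.5 CPM under RANKL, against 10.2, 9.56 and 9.07 under vehicle. Bub1b and Cenpf, of the spindle checkpoint and the kinetochore, had log2 fold changes of 0.57 ± 0.09 and 0.45 ± 0.08. Summed over the mitosis list, RANKL libraries held 273 to 323 CPM and vehicle libraries 203 to 219, a ratio of means of 1.38, against 1.053 for the replication members. Such sums weigh abundant genes most: Rrm1 and Rrm2, which did not pass, held 117 and 78.8 of the members' mean of 685 CPM under vehicle. The median log2 fold change was 0.46 for the mitosis list and 0.12 for the members. The difference between the lists was not tested, and all lists rest on the same libraries. Of the mitosis promoters 1 of 19 held an E2F match, while 14 of 19 held the cell cycle homology region (7 before the start) and 17 of 19 the CCAAT box.

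**Figure D5:**
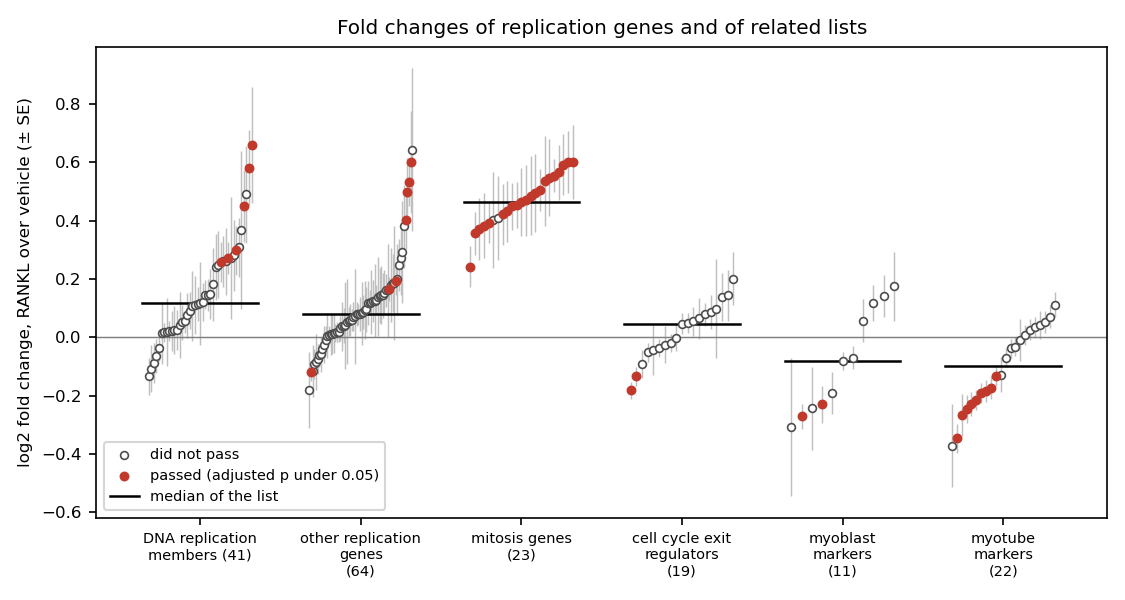
Log2 fold change (RANKL over vehicle, ± SE) of every measured gene of 6 lists, sorted within each list, with called genes in red and the list's median as a bar. The mitosis genes lie between 0.24 and 0.60 and are nearly all red, while the 41 replication members lie between -0.13 and 0.66, 35 of them with open symbols.

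Some markers of cell state also passed the test, and their part in the result was not tested. Of 19 measured regulators of cell cycle exit 2 fell and 0 rose, while 7.5% of all genes tested were called lower. These were Ccnd3, the cyclin D of differentiated muscle cells (-0.18 ± 0.03, adjusted p = 0.00139), and Cdkn1a, the inhibitor p21 that holds myotubes out of the cycle (-0.13 ± 0.03, adjusted p = 0.0130). Cdkn1a had 2143, 2200 and 2135 CPM under RANKL, against 2375, 2341 and 2391 under vehicle. Rbl1 and Btg1 stood at 0.20 ± 0.09 and 0.08 ± 0.04, Rb1 at -0.04 ± 0.03 and Ccnd1 at -0.04 ± 0.09, and none of these 4 passed the test.

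Of 22 measured myotube markers 9 fell, with a summed level of 45823 to 47579 CPM under RANKL and 48306 to 51882 under vehicle. By the same test 7.5% of all genes were called lower and 5.35% higher. Myh8, Myh2, Acta1 and Myh7 had the smallest p, with log2 fold changes of -0.35 to -0.19, and Myog stood at 0.01 ± 0.03. Positive values, none past the test, were found in 7 of the 22, and Tnnt1 (0.11 ± 0.04, adjusted p = 0.104), also named with its value known, was higher in each RANKL library than in any vehicle library. Among 11 markers of undifferentiated myoblasts 2 fell (Notch1 and Hes1), while Id1, Sdc4 and Myod1 stood at -0.19 ± 0.07, -0.08 ± 0.03 and -0.07 ± 0.04. In that list 4 of 11 had a positive value without passing: Hey1 (0.17 ± 0.12), Myf5 (0.14 ± 0.07, each RANKL library above each vehicle library), Notch3 (0.12 ± 0.06) and Id2 (0.06 ± 0.07), named here with their values known. The sum of the myoblast markers was 496 to 526 CPM under RANKL and 522 to 549 under vehicle. Of 15 macrophage and osteoclast markers 4 were measured, with 6.73 to 7.64 CPM in sum under RANKL and 5.04 to 5.42 under vehicle. The other 11, Ptprc and Csf1r among them, are absent from the count table. Mmp9 rose (1.58 ± 0.35, from a mean of under 1 CPM in either group), and Cd14, Itgam and Cd68 did not pass. Of 6 measured fibroblast markers Cd34 rose (0.30 ± 0.05), and Pdgfra, Ly6a and Dcn stood at 0.17 ± 0.06, 0.07 ± 0.04 and 0.05 ± 0.03. No measured marker in these lists was at 0 in any library.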

How the data were processed

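RNA of 6 C2C12 libraries was measured by RNA sequencing. The submitters' processing notes name STAR, FastQC, edgeR and mm10 but no version, and the sources give no counter, annotation or use of strand. The authors deposited a table of whole-number counts for 12625 genes (4708 further lines hold no gene) and a table of log2 values. Set against the counts over 9727 genes with over 200 counts in every library, the log2 values the authors deposited equal log2 CPM plus a constant per gene and per library to within 0.00610. The header names no unit. The constant per gene was read as gene length, which this check does not establish. Low genes appear only as far as the deposited table holds them.

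Total counts were 32732604 to 37445933 in RANKL libraries and 33566746 to 39677999 in vehicle libraries. To look for libraries that repeat one another, the mean chi-square per gene was taken between library pairs of a group. It was 3.42 to 9.62, more spread than random sampling of reads gives. No library was taken as a repeat of another, and all 6 were kept. Tests used edgeR 4.0.16 in R 4.3.3 (TMM, filterByExpr, which removed 0 genes, quasi-likelihood F test, Benjamini-Hochberg over all genes). The SE is the log2 fold change divided by the square root of F. Alternatives used DESeq2 1.42.0 and limma 3.58.1 (voom), other scalings and filters, a replicate block and omission of each library, and, added after the data were seen, removal of a trend on gene length. The edgeR test was also run on counts simulated with independent libraries and with edgeR's own estimates of spread. Such a run cannot show whether the libraries here are independent. Of the members, 15 share exons with another gene in GENCODE M21, 2 of them on the same strand, and of the 6 that rose Tk1 alone does. Orc6, Mcm7, Pole and Lig1, whose groups did not overlap but which did not pass, also share exons with genes on the opposite strand.

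The members and all lists were chosen with earlier results of these data known. All members are reported. In each role, values per library go to at most 4 called members by smallest p and to the member with the largest p, and further members were added after their values were seen. From each other list the 4 genes with the smallest p are named, plus Cdkn1a, Rb1, Ccnd1, Myod1 and Myog. Promoters come from RefSeq on GRCm38.p6.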

Additional observations from a re-analysis of the deposited data

How the results depend on the processing

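The direction of the 6 calls held in all 14 alternatives, and 0 members were called lower in any of them. The count of members that rose was 6 in the main test, beside 5.35% of all genes called higher. It was 11 with total counts and no TMM, beside 8.48% of all genes. When any one library was left out it was 2 to 7, beside 2.95% to 5.91%. It was 5 by DESeq2, 5 by limma-voom and 8 with the trend on gene length removed, beside 4.24%, 5.2% and 6.52% of all genes. The median log2 fold change of the members was 0.15 with total counts and 0.10 to 0.14 without any one library. The count of other replication genes called was 2 to 8, and that of mitosis genes 10 to 20, without any one library. In those fits 373 to 746 of all 12625 genes were called higher and 537 to 880 lower. Replicate numbers are shared by the groups, but the deviations of same-numbered libraries correlated by only 0.0693, 0.0369 and 0.0182, so the numbers were not taken as pairs. With the replicate block 7 members rose (17.1%, beside 5.78% of all genes), Chaf1b beside the 6, and each library correlated best with its own number. The E2F share of the members was 26.5% in the bases before the start alone, against 3.92% of tested genes, and 9 of the 10 members highest per length were also among the 10 highest in CPM. Low counts limit Orc1, Cdc6 and Gins1, with 19 to 66 counts per library.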
